A study of Mus musculus with 6 samples.

Results

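The genes described here encode collagens, laminins and integrins, the fibres and sheets of the extracellular matrix and the receptors through which cells hold on to them. They were taken by name: all probes of a 2-colour oligonucleotide array whose annotated gene symbol starts with Col and a digit, with Lam and the letter a, b or c and a digit, or with Itga or Itgb. This gave 86 of the 21766 probes, for 76 of the 15063 genes named by a probe with a single symbol. They comprised 5 fibrillar collagen genes of meninges, 18 basement membrane genes (collagens IV, XV and XVIII and the laminins), 23 integrin receptor genes, 27 other collagen genes and 3 genes of integrin-binding proteins whose symbols also start with Itgb. Of these, 75 probes for 68 genes had enough values to be tested.

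Mest (also called Peg1) is imprinted and transcribed from the paternal copy. Each of the 6 arrays set RNA of a single mutant E12.5 cortex (mutants 1, 3, 4, 5, 6 and 7), from an embryo that inherited from its father a LacZ-targeted Mest allele without exons 3 to 8, with that of 1 wild-type cortex as its partner. The mother was wild type, so the mutants kept an intact maternal copy, and the allele was present in all tissues. According to the design there were 3 wild-type cortices (2, 8 and 9) on 2 arrays each, once per dye; the wild type of the array of mutant 3 is labelled 1 and was read as wild type 2. The mutant carried Cy5 on the arrays of mutants 3, 5 and 6 and Cy3 on those of mutants 1, 4 and 7. Values are given on a log2 scale as mutant over wild type, relative to the median of their array, so they are differences, and no level of a gene was measured. For the same reason the cortical origin of the samples could not be checked by marker levels; of 16 listed genes of cortical progenitors and neurons 15 were tested, with a median ratio of -0.0026, and those of smallest p were Slc1a3 at 0.23, Fabp7 at -0.20 and Pax6 at 0.13. Values were present for 16422 to 19564 probes per array, and the number of arrays limits the precision. The Mest probe lay at -1.59 ± 0.13 (standard error) and below 0 on 6 of 6 arrays, but this gene was itself used to settle the sign of the deposited values, and whether the probe lies within exons 3 to 8 was not determined. In limma its adjusted p over all probes was 0.60.

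Collagens are triple helices. The fibrillar ones, chiefly types I, III and V, are made by fibroblasts of the meninges that cover the brain. Basement membranes are thin sheets of laminin and type IV collagen networks, and in embryonic cortex they lie under the pia, where the endfeet of radial glia attach, and around blood vessels. Integrins are receptors of an alpha and a beta subunit that bind these proteins, and in radial glia those that contain the beta subunit Itgb1 anchor the endfeet to laminin. In mice, loss of several laminins, of Itgb1 or of its signalling partners breaches the pial basement membrane. RNA of a whole cortex mixes these cells, so that fewer cells of a type and less RNA per cell cannot be told apart.

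No collagen, laminin or integrin probe passed the threshold for a difference between mutant and wild-type cortex (limma, adjusted p under 0.05 in 0 of 75 probes), and the background over all 17476 tested probes was 0%. At an unadjusted p under 0.05 there were 2 of the 75, against 3.93% of all tested probes. These were Col15a1 below 0, where 2.33% of all probes lay, and Itgav above 0, where 1.6% lay. On all arrays with a value 4 of the 75 probes had the same sign, against 5.57% of all probes: 2 above 0 (background 2.44%) and 2 below 0 (background 3.12%). Fitted ratios lay above 0 for 48 of the 75 and below 0 for 27, against 51.3% and 48.7% of all probes. At an unadjusted p and for the same sign, the shares of 2.67% and 5.33% lay near the background. The adjusted p of the 75 probes was 0.90 or higher, and the median size of their ratios was 0.11, against 0.14 for all tested probes.

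**Figure D1:**
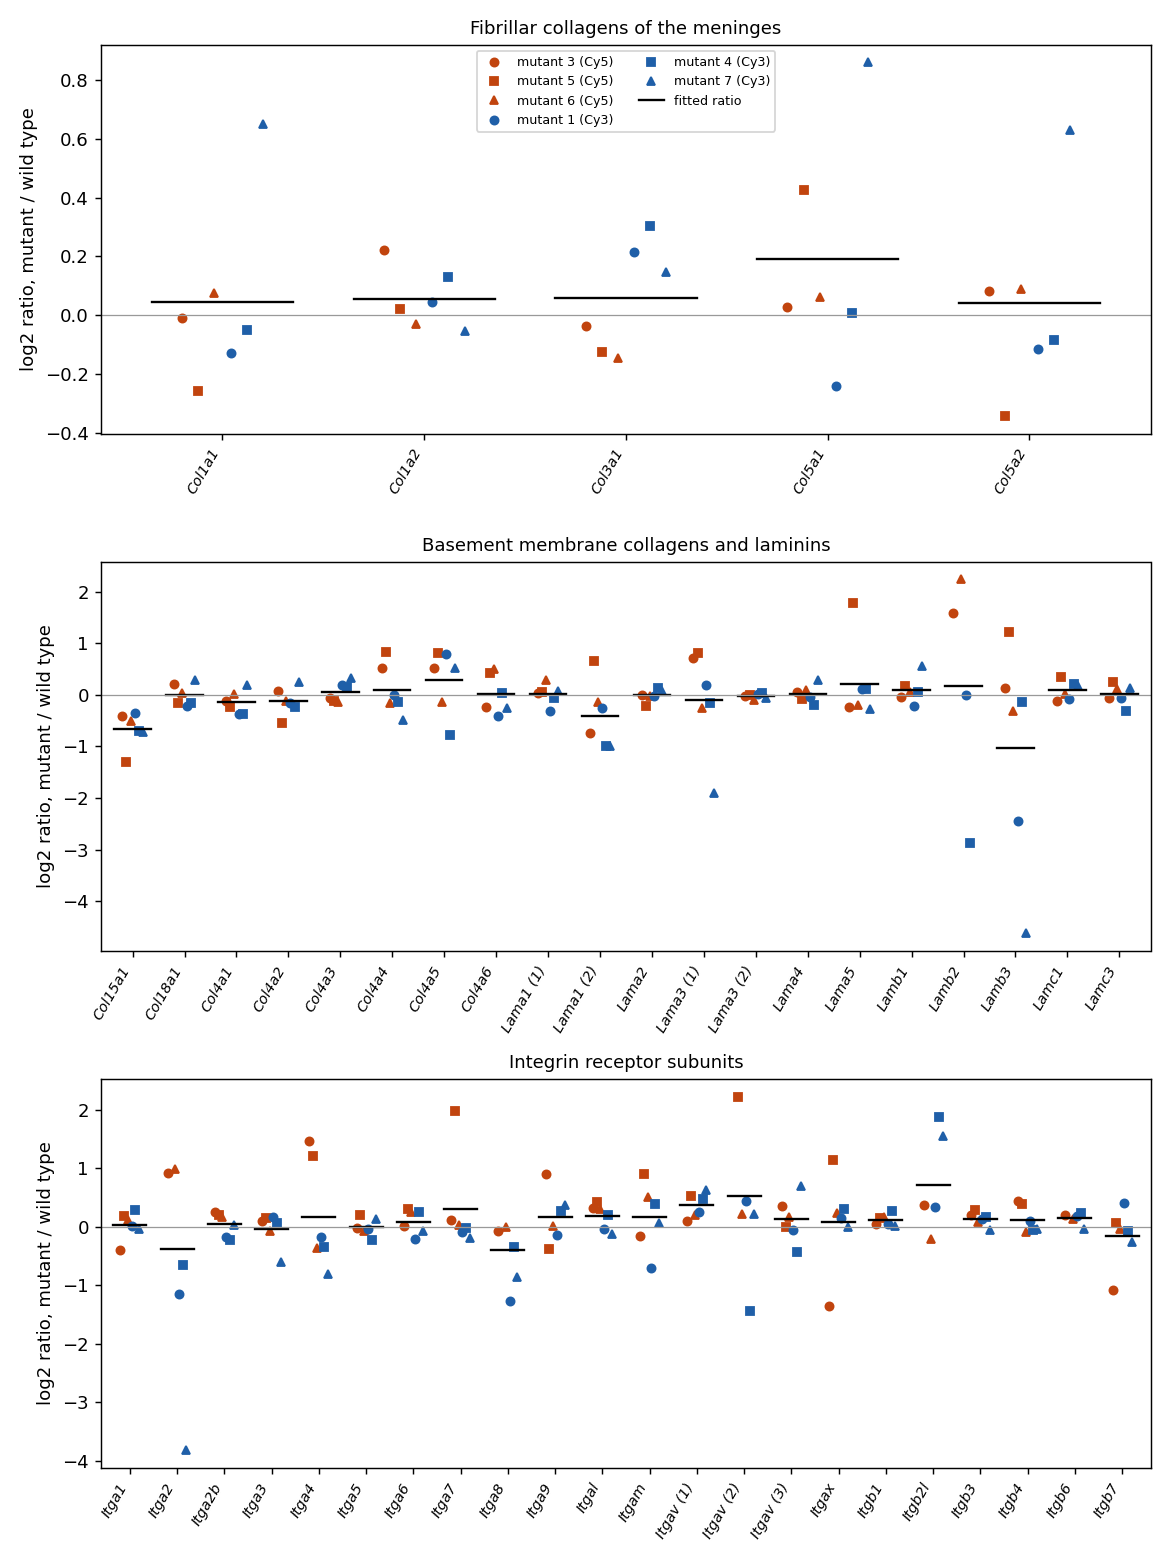
Log2 ratio of mutant over wild type on each of the 6 arrays (points) and the fitted ratio (bars) for the tested probes of the 3 groups, with red for arrays with the mutant in Cy5 and blue for Cy3; numbers in brackets tell probes of a gene apart, and each panel has its own scale. Mutant 7 lies at 0.65 for Col1a1, 0.86 for Col5a1 and 0.63 for Col5a2, above the other arrays, and all 6 points of Col15a1 lie below 0.

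The 5 fibrillar collagen genes of meninges had ratios close to 0. Their median was 0.056, against 0.0013 for all 12576 tested genes, their fitted ratios lay between 0.043 and 0.19, and 0 of 5 passed an unadjusted p of 0.05. Col1a1, which encodes the main chain of type I collagen, had -0.010, -0.26 and 0.077 in mutants 3, 5 and 6 and -0.13, -0.051 and 0.65 in mutants 1, 4 and 7. Col1a2, the partner chain in the same triple helix, had 0.22, 0.022 and -0.029 in mutants 3, 5 and 6 and 0.046, 0.13 and -0.055 in mutants 1, 4 and 7. Mutant 7 was thus the highest of the arrays for Col1a1 and the lowest for Col1a2. The fitted ratios of these chains were 0.047 ± 0.14 for Col1a1 and 0.056 ± 0.081 for Col1a2 (standard error, n = 6 arrays), with limma adjusted p of 0.95 and 0.91.

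Col3a1 encodes type III collagen, which in mouse cortex is made in the meninges and binds the receptor Adgrg1 on progenitors. It had -0.035, -0.12 and -0.15 in mutants 3, 5 and 6 and 0.21, 0.30 and 0.15 in mutants 1, 4 and 7, so that its sign followed the dye and the dye orientations did not overlap. Its fitted ratio was 0.060 with a 95% confidence interval from -0.12 to 0.24 (limma adjusted p = 0.90). Col5a1 and Col5a2 encode chains of type V collagen, which starts the assembly of type I fibrils. Col5a1 had 0.027, 0.43 and 0.061 in mutants 3, 5 and 6 and -0.24, 0.007 and 0.86 in mutants 1, 4 and 7. Col5a2 had 0.081, -0.34 and 0.090 in mutants 3, 5 and 6 and -0.12, -0.085 and 0.63 in mutants 1, 4 and 7. Mutant 7 was the highest array for both, and mutant 5 lay above 0 for Col5a1 and below 0 for Col5a2.

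The median of the 5 genes was 0.63 on the array of mutant 7, outside the range from -0.12 to 0.061 on the other 5 arrays. Some other collagens of mesenchyme and cartilage were high on this array too: Col11a1 at 0.95, a Col6a3 probe at 0.94, Col6a1 at 0.84 and Col2a1 at 0.63. Others of these kinds were low on it: Col6a2 at -0.49, Col9a2, of cartilage, at -0.48 and another Col6a3 probe at -0.43. On that array 12 of 38 collagen values lay above 0.5, and 16.4% of all tested probes did so. The 12 include Col1a1, Col5a1 and Col5a2, through which this array stood out, so the count partly restates their values. It was 8 of 34 in mutant 5 (21.5% of all tested probes) and 6 of 38 in mutant 3 (16.5%). In mutants 1, 4 and 6 it was 1 of 38 each (11.5%, 11.4% and 8.56%). Markers of meninges and mesenchyme that are no collagens (Foxc1, Aldh1a2, Twist1 and others, 13 of 16 with a value) had their highest median on the same array, 0.25 with 8 above and 5 below 0 and a range from -1.48 to 2.18, against medians from -0.13 to 0.0030 elsewhere. Among these markers Postn was at -1.48, Mgp at -0.265 and Cdh11 at 0.35 in mutant 7. Cartilage markers had a median of 0.14 on that array, with 5 of 7 above 0, and a median of 0.12 on the array of mutant 3. The part of these cells in the collagen values was not tested. The median fitted ratio of the 5 fibrillar genes was 0.015 without the array of mutant 7, 0.019 without that of mutant 3 and 0.12 without that of mutant 1.

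**Figure D2:**
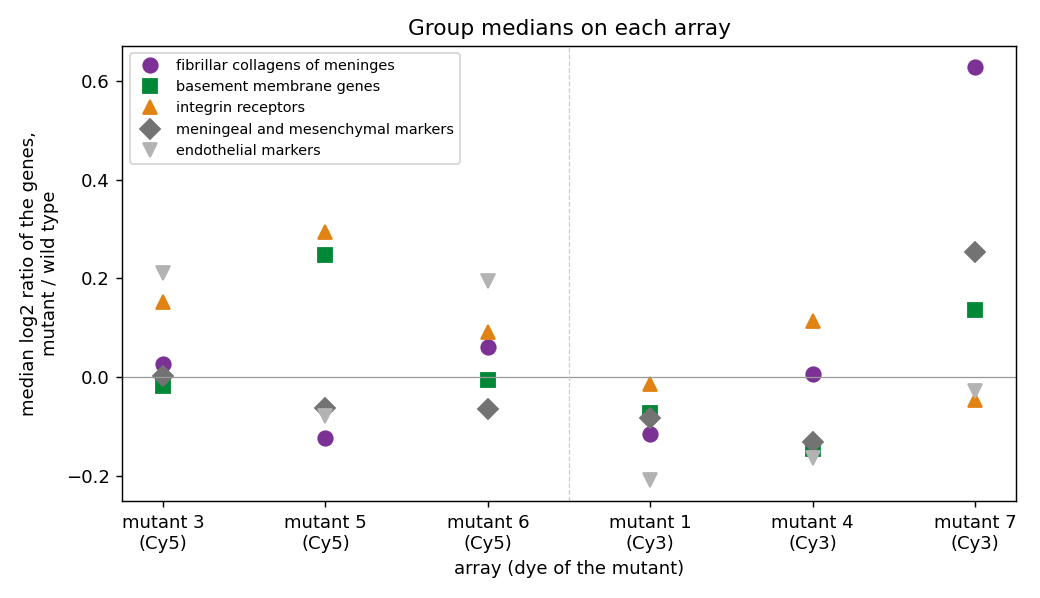
Median log2 ratio of mutant over wild type over the genes of each group on each array, ordered by the dye of the mutant, with 2 lists of cell type markers in grey. The fibrillar collagens reach 0.63 on the array of mutant 7, where the meningeal and mesenchymal markers are at 0.25, and lie between -0.12 and 0.061 on the other arrays.

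Basement membrane genes were centred on 0. The 18 genes had a median of 0.011, with 11 above and 7 below 0, and the median per array was -0.018, 0.25 and -0.0055 in mutants 3, 5 and 6 and -0.072, -0.15 and 0.14 in mutants 1, 4 and 7 (mean 0.024 ± 0.14, SD, n = 6 arrays). Of their 20 tested probes 1 had an unadjusted p under 0.05, the probe of Col15a1.

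Col15a1 encodes type XV collagen, which lies in the outer layer of basement membranes of vessels and muscle and joins them to the surrounding matrix. Its probe (CG_Mm_3005149_1) had -0.41, -1.30 and -0.50 in mutants 3, 5 and 6 and -0.36, -0.71 and -0.73 in mutants 1, 4 and 7. All 6 arrays lay below 0, and the dye orientations overlapped, with means of -0.74 in Cy5 and -0.60 in Cy3. The fitted ratio was -0.67 ± 0.16 (standard error), or 1.59-fold lower in mutants, with 95% confidence limits of -1.07 and -0.26. A two-sided exact permutation test that flips the signs of the 6 arrays had p = 0.0313. That is the smallest p of 6 arrays, and every probe with the same sign on all 6 has it, so it only restates the signs. Only 3 wild types are independent, and 3 values reach no lower than 0.25. The wild-type limit holds for every sign-flip p given here. The unadjusted p in limma was 0.0077, and adjusted over all probes it was 0.90, so the ratio did not pass. Without any 1 array it lay between -0.74 and -0.53. Endothelial markers, which include Kdr and Esam and mark the vessels where type XV collagen is found, had a median of 0.014 over 13 genes, with 7 above and 6 below 0; their medians were 0.21, -0.078 and 0.20 in mutants 3, 5 and 6 and -0.21, -0.16 and -0.027 in mutants 1, 4 and 7. The endothelial genes of smallest p were Esam at -0.43, Plvap at -0.35 and Kdr at -0.21. The pericyte list had a median of 0.037 over 5 of 7 genes, with Abcc9 at -0.18, Rgs5 at 0.065 and Anpep at 0.14. Medians of the pericyte list were 0.049, -0.26 and -0.017 in mutants 3, 5 and 6, with 3 genes in mutant 5. In mutants 1, 4 and 7 they were 0.017, -0.13 and 0.018. The part of vessel cells in the Col15a1 ratio was not tested.

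Col18a1, whose product is the close relative type XVIII collagen and the source of endostatin, lay at 0.0029 (standard error 0.12) and ranged from -0.22 to 0.28 over the arrays.

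Col4a1 and Col4a2 encode the chains of the type IV collagen found in nearly all basement membranes, and are transcribed in opposite directions from a shared promoter. The promoter windows of both genes, from 250 bases before to 50 bases after the start site, are shown because they overlap each other, and capitals mark the 78 bases that both windows hold. Both are from RefSeq on GRCm38.p6, at chr8:11312777-11313076 on the minus strand for Col4a1 and at chr8:11312555-11312854 on the plus strand for Col4a2, each read 5′ to 3′ along its own gene.
Col4a1: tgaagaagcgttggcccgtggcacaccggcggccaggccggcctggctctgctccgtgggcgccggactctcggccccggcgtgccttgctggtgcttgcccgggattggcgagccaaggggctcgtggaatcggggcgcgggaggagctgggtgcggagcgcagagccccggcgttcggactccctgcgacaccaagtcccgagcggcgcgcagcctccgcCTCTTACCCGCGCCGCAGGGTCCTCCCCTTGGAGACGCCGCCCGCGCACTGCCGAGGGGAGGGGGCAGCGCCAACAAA
Col4a2: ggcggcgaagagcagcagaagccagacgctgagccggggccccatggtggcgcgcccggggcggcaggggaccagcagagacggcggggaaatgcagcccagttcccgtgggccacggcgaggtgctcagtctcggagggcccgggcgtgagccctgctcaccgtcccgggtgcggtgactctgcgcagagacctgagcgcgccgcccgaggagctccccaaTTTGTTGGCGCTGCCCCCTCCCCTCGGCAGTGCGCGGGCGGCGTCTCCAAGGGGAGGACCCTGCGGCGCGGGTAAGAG

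Neither window holds the TATA motif TATAAA on either strand, a motif found in 13.6% of the 32851 promoters of the table. With both strands searched, the motif CCAAT had 1 match in each window, neither of them wholly within the shared bases, and it was found in 37.4% of all promoters. GGGCGG occurred 1 time in the Col4a1 window and 3 times in that of Col4a2, with 1 occurrence in the shared bases, and in 35.7% of all promoters. A match describes the letters of these windows and nothing more.

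On the arrays Col4a1 had -0.12, -0.24 and 0.025 in mutants 3, 5 and 6 and -0.38, -0.36 and 0.20 in mutants 1, 4 and 7. Col4a2 had 0.068, -0.55 and -0.11 in mutants 3, 5 and 6 and -0.16, -0.24 and 0.25 in mutants 1, 4 and 7. The pair had the same sign on 4 of 6 arrays, with mutant 7 the highest for both. The fitted ratios were -0.15 for Col4a1 and -0.12 for Col4a2 (limma adjusted p = 0.90 each), with intervals from -0.44 to 0.14 and from -0.46 to 0.21.

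Among 9 pairs of tested members that neighbour each other within 100 kb in the gene table of GRCm38.p6, the mean distance between the partners over the arrays was smallest for Col4a1 and Col4a2, at 0.17. A distance is also small where both genes vary little, and the SDs over the arrays were 0.23 for Col4a1 and 0.27 for Col4a2. Col9a1 and Col19a1 had the same sign on more arrays, 5 of 6, at a mean distance of 0.55. Itgam and Itgax had it on 4 of 6, at 0.46. The mean distance was 0.29 for Col3a1 and Col5a2, which had the same sign on 2 of 6 arrays. It was 0.47 for Col4a3 and Col4a4, with the same sign on 1 of 6, and 0.76 for Col4a5 and Col4a6, with the same sign on 1 of 6. These last genes encode type IV chains of restricted tissues such as the kidney filter, and pair head to head as Col4a1 and Col4a2 do. Col4a3 and Col4a4 had fitted ratios of 0.058 and 0.092, and Col4a5 and Col4a6 had 0.29 and 0.013. Col4a3 was below 0 on all arrays with the mutant in Cy5 and above 0 on all in Cy3. Col4a5 ranged from -0.78 in mutant 4 to 0.81 in mutant 5. The limma adjusted p of these 4 genes was 0.90 or higher.

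The laminin genes gave 12 tested probes for 10 genes, with a median over genes of 0.013, 6 above and 4 below 0. Lamc1, which encodes the gamma chain of most laminins, had -0.12, 0.35 and 0.0090 in mutants 3, 5 and 6 and -0.076, 0.20 and 0.17 in mutants 1, 4 and 7. Lamb1, the beta chain of the embryonic laminins, had -0.040, 0.17 and 0.064 in mutants 3, 5 and 6 and -0.21, 0.054 and 0.56 in mutants 1, 4 and 7. Their fitted ratios were 0.089 and 0.10, with standard errors of 0.10 and 0.13. The highest array was that of mutant 5 for Lamc1 and that of mutant 7 for Lamb1.

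Lama2 and Lama4, the alpha chains of muscle and of vessel laminins, lay close to 0. Lama2 ranged from -0.21 to 0.13 with a median of -0.0080, and Lama4 from -0.20 to 0.29 with a median of 0.0010. Lamc3, a gamma chain that in mice supports the pial basement membrane, ranged from -0.32 to 0.25 with a median of 0.029. The 95% confidence intervals were -0.21 to 0.20 for Lama2, -0.23 to 0.27 for Lama4 and -0.26 to 0.28 for Lamc3.

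Lama1 encodes the alpha chain of the first laminin of the embryo, which in mouse brain is a part of the pial basement membrane. Its tested probes differed in sign. The probe CG_Mm_3005315_1 lay at 0.010 with values from -0.31 to 0.29, and CG_Mm_3007443_1 lay at -0.41 with a median of -0.49 and a highest value of 0.65. The second had a standard error of 0.26 against 0.092 for the first. Its values were below 0 on every array except that of mutant 5.

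Lamb3, a beta chain of the epidermal laminin, had 0.14, 1.21 and -0.31 in mutants 3, 5 and 6 and -2.45, -0.14 and -4.62 in mutants 1, 4 and 7. Its fitted ratio was -1.03 with an interval from -2.62 to 0.57, and it was the only member beyond 1 in size, against 3.5% of all tested probes. Lamb2, the beta chain of synaptic and vascular laminins, had values on 4 arrays, 1.60 and 2.24 in mutants 3 and 6 and -0.0040 and -2.88 in mutants 1 and 4. Lama3, the epidermal alpha chain, had 2 tested probes, of which CG_Mm_3005303_1 ranged from -1.91 to 0.81 and CG_Mm_3007378_1 from -0.090 to 0.030. Lama5, an alpha chain of mature basement membranes, lay between -0.27 and 0.12 on 5 arrays and at 1.79 in mutant 5. The epidermal markers, Krt5, Trp63 and others, had a median of -0.11 over 9 tested genes of 10, with 3 above and 6 below 0, and medians of -0.10, -0.17 and 0.036 in mutants 3, 5 and 6 and -0.13, -0.26 and -0.23 in mutants 1, 4 and 7. Tfap2a and Perp lay at -0.21 each. Krt18 lay at -0.68, with an unadjusted limma p of 0.020. In mutants 1 and 7, the arrays on which Lamb3 was lowest, Krt18 was at -1.50 and -1.67 and Tfap2a at 0.16 and 0.073. The listed markers ranged from -3.69 to 0.16 in mutant 1, with 2 above and 6 below 0. In mutant 7 they ranged from -1.67 to 3.09, with 3 above and 6 below 0. The part of epidermal cells in these values was not tested.

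**Figure D3:**
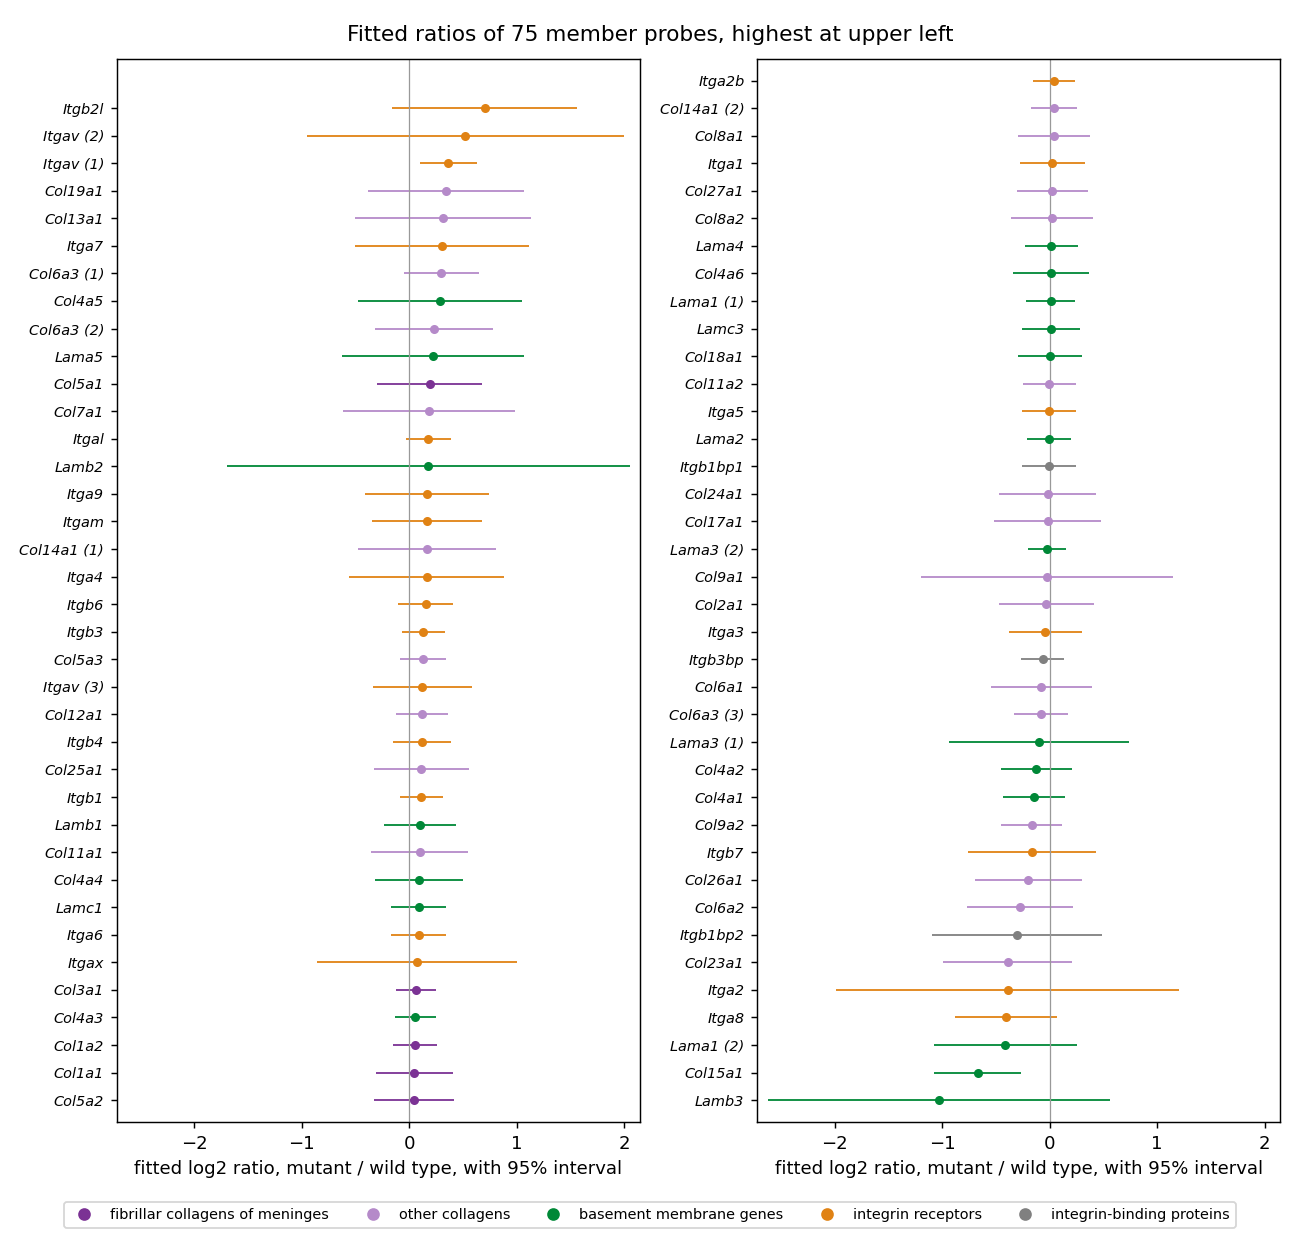
Fitted log2 ratio of mutant over wild type with its 95% confidence interval for the 75 tested probes, in order of the ratio from the upper left to the lower right and coloured by gene group. The intervals of Col15a1 (-1.07 to -0.26) and of 1 Itgav probe (0.10 to 0.63) leave out 0 before adjustment, and that of Lamb3 runs from -2.62 to 0.57.

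Integrin receptor genes had a median of 0.12 over 20 tested genes, with 15 above and 5 below 0, where 6319 of all 12576 tested genes lay above 0. The median per array was 0.15, 0.29 and 0.091 in mutants 3, 5 and 6 and -0.014, 0.11 and -0.046 in mutants 1, 4 and 7, so that it was above 0 on 4 of 6 arrays (mean 0.099 ± 0.12, SD, n = 6 arrays). Of 22 tested probes 1 had an unadjusted p under 0.05, a probe of Itgav.

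Itgb1 encodes the beta subunit shared by most matrix-binding integrins. It had 0.042, 0.15 and 0.16 in mutants 3, 5 and 6 and 0.036, 0.27 and 0.013 in mutants 1, 4 and 7. All 6 values were above 0, by small amounts in mutants 1, 3 and 7. The fitted ratio was 0.11 (95% confidence limits -0.091 and 0.32), and the limma adjusted p was 0.90. The exact sign-flip permutation p was 0.0313, which 6 values of the same sign always give.

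Itga6, an alpha partner of Itgb1 in laminin receptors of radial glia, had 0.0080, 0.30 and 0.25 in mutants 3, 5 and 6 and -0.22, 0.25 and -0.078 in mutants 1, 4 and 7. Itga3, a laminin receptor subunit of radial glia and migrating neurons, had 0.087, 0.14 and -0.083 in mutants 3, 5 and 6 and 0.17, 0.062 and -0.60 in mutants 1, 4 and 7. The Itga3 value of mutant 7 stood below the other 5, which spanned -0.083 to 0.17. Itga5, the main fibronectin receptor subunit, ranged from -0.23 to 0.20 with a median of -0.030. Fitted ratios were 0.086 for Itga6, -0.038 for Itga3 and -0.0062 for Itga5, with standard errors of 0.10, 0.13 and 0.10. Itga7 and Itgb4, further laminin receptor subunits, lay at 0.30 and 0.12, and Itga1, a collagen receptor subunit, at 0.026. Itga7 was at 1.98 in mutant 5 and between -0.19 and 0.11 on the other arrays. Its median was 0.0035 and its standard error 0.32.

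Itgav encodes an alpha subunit that binds the RGD motif of matrix proteins and, with Itgb8, activates Tgf-beta along brain vessels. The array holds 3 Itgav probes, all with fitted ratios above 0. The probe CG_Mm_3005272_1 had 0.10, 0.52 and 0.21 in mutants 3, 5 and 6 and 0.25, 0.47 and 0.63 in mutants 1, 4 and 7. It lay above 0 on all 6 arrays, with a fitted ratio of 0.36 ± 0.10 (standard error; limits 0.099 and 0.63), or 1.29-fold higher in mutants. Its unadjusted and adjusted p in limma were 0.016 and 0.90. The exact sign-flip permutation p was 0.0313, which 6 values of the same sign always give. The probe CG_Mm_EXT_3112748_1 had 0.35, 0.0015 and 0.17 in mutants 3, 5 and 6 and -0.052, -0.43 and 0.70 in mutants 1, 4 and 7. The probe CG_Mm_EXT_3104546_1 had 2.22 and 0.22 in mutants 5 and 6, 0.43, -1.45 and 0.22 in mutants 1, 4 and 7, and none in mutant 3. These probes lay at 0.12 and 0.52, with standard errors of 0.18 and 0.55, and had both signs over the arrays. The mean of all Itgav probes lay at 0.27 with an unadjusted p of 0.28 in limma.

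Among other RGD-binding subunits, Itgb3 and Itgb6 lay above 0 on all arrays with a value except that of mutant 7. Itgb3, which pairs with Itga2b on platelets and with Itgav, lay at 0.13 with values from -0.059 to 0.29. Itgb6, an epithelial partner of Itgav, lay at 0.15 with values on 5 arrays from -0.043 to 0.24. Itga8, whose receptor guides kidney outgrowth, was below 0 on all 5 arrays with a value. It had -0.077 and -0.0020 in mutants 3 and 6 and -1.28, -0.35 and -0.87 in mutants 1, 4 and 7, so that its size followed the dye. Its fitted ratio was -0.41 with a standard error of 0.18, an exact sign-flip permutation p of 0.0625, the smallest that 5 arrays allow, and a limma adjusted p of 0.90. Itga2b had a median of 0.098 and a range from -0.22 to 0.25, and the megakaryocyte markers had a median of -0.031 over 6 of 9 genes, with Ppbp at -0.38, Clec1b at -0.19 and Treml1 at 0.41. The probe of Itgb5 had no value on any array, and none of the probes taken by name was annotated to Itgb8.

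Of the integrins of leukocytes 7 genes were tested, with 6 above and 1 below 0 and a median of 0.17. Of all 12576 tested genes 6319 lay above 0. The median of the 7 genes was 0.31, 0.66 and 0.005 in mutants 3, 5 and 6, with 6 genes in mutant 5. In mutants 1, 4 and 7 it was -0.049, 0.26 and -0.011. Itgal, the alpha subunit of the lymphocyte integrin, lay at 0.18 with a range from -0.12 to 0.42, and all 3 values with the mutant in Cy5 were above all 3 in Cy3. Itgam, Itgax, Itga4 and Itga9 had fitted ratios between 0.074 and 0.17, and Itgb7 lay at -0.17. Itga4 was below 0 on 4 of its 6 arrays, with 1.46 and 1.21 in mutants 3 and 5 and a median of -0.26. A probe of Itgb2l, named for its likeness to the leukocyte beta subunit gene Itgb2, lay at 0.70 with a standard error of 0.32 on 5 arrays, from -0.21 to 1.87. Its other probe had values on 4 arrays, from -2.59 to 1.53, and too few in Cy5 to be tested. Microglia and myeloid markers had a median of 0.0003 over 10 of 12 genes, with 5 above and 5 below 0, and array medians between -0.13 and 0.053. Tyrobp, Aif1 and C1qc, those of smallest p, lay at -0.089, -0.087 and 0.071.

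Values of some members followed the dye, but no more often than those of all tested probes. In 15 of the 75 probes all arrays of a dye orientation lay above all arrays of the other, against 29.7% of all tested probes. The dye term passed an adjusted p of 0.05 in limma in 0 of 75 and an unadjusted p under 0.05 in 12, against 0.269% and 20% of all probes. Col13a1, a transmembrane collagen of nerve-muscle contacts, had 0.99, 2.58 and 0.64 in mutants 3, 5 and 6 and -0.34, -0.82 and -1.15 in mutants 1, 4 and 7, with a fitted ratio of 0.32. Itga2, a collagen receptor subunit of platelets, had 0.91 and 0.98 in mutants 3 and 6 and -1.15, -0.65 and -3.83 in mutants 1, 4 and 7, with a fitted ratio of -0.39. Each of these genes had opposite signs in the dye orientations. Col17a1, a collagen of hemidesmosomes, had a mean of -0.59 over the Cy5-labelled mutants and 0.55 over those labelled with Cy3, and the probe CG_Mm_EXT_3100190_1 of Col14a1, a fibril-associated collagen, had -0.34 and 0.42. Neither dye orientation alone gives the ratio of such genes.

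**Figure D4:**
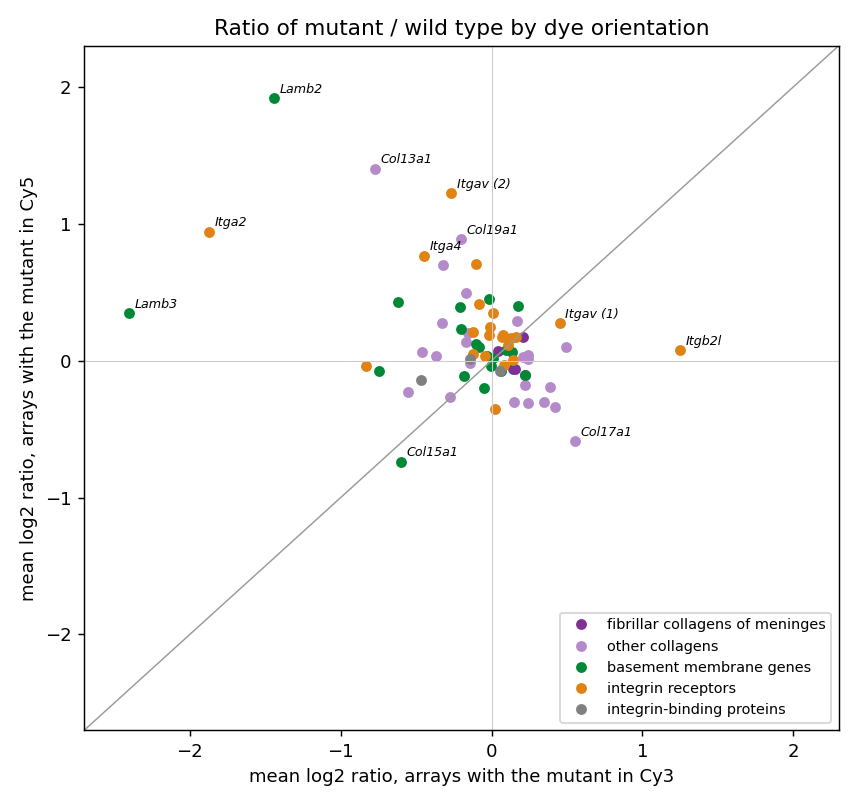
Mean log2 ratio of mutant over wild type over the Cy5-labelled mutants (vertical) against the Cy3-labelled mutants (horizontal) for the 75 tested probes, with the line of equality. Col15a1 lies near the line at -0.74 and -0.60, whereas Lamb2, Lamb3, Itga2 and Col13a1 lie far above it.

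The other collagens gave 25 tested probes for 22 genes, with a median over genes of 0.024, 12 above and 10 below 0, and 0 of the 25 with an unadjusted p under 0.05. The 6 other fibrillar genes had a median of 0.012 and fitted ratios from -0.032 for Col2a1, the collagen of cartilage, to 0.13 for Col5a3. Fitted ratios of the others reached from -0.39 for Col23a1 to 0.34 for Col19a1. The genes of type VI collagen, which forms microfibrils around cells, had ratios of both signs. Col6a1 had -0.38, -0.28 and -0.25 in mutants 3, 5 and 6 and -0.35, -0.044 and 0.84 in mutants 1, 4 and 7, with a fitted ratio of -0.075. Its neighbour and partner chain Col6a2 had a ratio of -0.27 with a standard error of 0.18 and lay at -0.49 in mutant 7. Col6a3 had fitted ratios of 0.30, 0.23 and -0.082 on its 3 probes, and in mutant 7 they had 0.94, 0.14 and -0.43. Col9a1, a fibril-associated collagen of cartilage, ranged from -1.21 to 1.39. Over the 5 member genes with more than 1 tested probe, 2 had probes of opposite sign, Col6a3 and Lama1.

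The 3 integrin-binding proteins all lay below 0, at -0.0076 for Itgb1bp1, -0.30 for Itgb1bp2 and -0.063 for Itgb3bp, with a limma adjusted p of 0.90 or higher. The first binds the tail of Itgb1, the second is a muscle protein also called melusin, and the third is a part of the centromere.

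The 11 probes that were not tested had values on too few arrays. Itgae and Itgb5 had none, and Col22a1 had 1. Col10a1, Col16a1, Col6a4 and Col9a3 had 3 values each, a probe of Col11a1 and of Lama3 had 2, and Itgb2 and a probe of Itgb2l had 4 but fewer than 2 in Cy5. Values on all 6 arrays were present for 86.7% of the tested member probes, against 77.4% of all tested probes.

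Genes that make, crosslink and read the matrix gave no probe past the adjusted threshold in limma (0 in each of these lists). Of the genes of collagen synthesis and crosslinking 19 of 25 were tested, with 8 above and 11 below 0, a median of -0.025 and 4 of 22 probes at an unadjusted p under 0.05, where 3.93% of all tested probes lay. These were the lysyl oxidase genes Loxl2 at 0.80 and Loxl3 at -0.72, the procollagen protease gene Adamts3 at 0.44 and the prolyl hydroxylase gene P4ha1 at 0.27. Loxl2 had 2.15 and 0.92 in mutants 3 and 6 and 0.37, -0.085 and -0.038 in mutants 1, 4 and 7. Adamts3 was below 0 on all 3 arrays with the mutant in Cy5 and above 0 on all 3 in Cy3. Loxl2, Loxl3 and P4ha1 likewise showed no overlap of the dye orientations, P4ha1 with 0.64, 0.71 and 0.55 in mutants 3, 5 and 6 and -0.074, 0.16 and -0.39 in mutants 1, 4 and 7. Of all tested probes 29.7% showed no such overlap.

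Of the other matrix genes 22 of 27 were tested, with 9 above and 13 below 0, a median of -0.033 and 2 of 26 probes at an unadjusted p under 0.05 (background 3.93%). Agrn, which encodes agrin, a proteoglycan of basement membranes, had 0.33, 0.36 and 0.13 in mutants 3, 5 and 6 and 0.16, 0.15 and 0.26 in mutants 1, 4 and 7. It lay above 0 on all 6 arrays, with a fitted ratio of 0.23, a standard error of 0.080 and a limma adjusted p of 0.90. Fn1, which encodes fibronectin, lay at -0.26 (standard error 0.098) and below 0 on 5 of 6 arrays. Tnc, the gene of tenascin C, was at -1.46 over 4 arrays, where mutant 1 stood at -4.40.

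Integrin adhesion genes (19 of 30 tested) had a median of 0.043 with 12 above and 7 below 0, and 0 of 20 probes at an unadjusted p under 0.05. The kinase gene Src lay at -0.23 and below 0 on 6 of 6 arrays, Vcl, which encodes vinculin, at 0.21, and the small GTPase gene Rap1b at -0.34. Matrix proteases and their inhibitors (16 of 19 tested) had a median of 0.066 with 11 above and 5 below 0, and Mmp12, Mmp17 and Mmp24 lay at 0.23, 0.16 and 0.14. Of 16 probes in this list 0 had an unadjusted p under 0.05.

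Markers of the meninges and mesenchyme other than collagens had a median of 0.010 over 15 of 16 genes, with 8 above and 7 below 0. Postn, which encodes the matrix protein periostin, lay at -0.54 and below 0 on 6 of 6 arrays, Mgp at -0.24 and Cdh11 at 0.21. In limma 0 of these markers passed an adjusted p of 0.05. Cartilage markers had a median of 0.027 over 7 genes, with Acan at 0.33, Comp at 0.24 and Hapln1 at 0.30.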

How the data were processed

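The values were the deposited log2 ratios of Cy5 over Cy3 of 6 two-colour arrays; Trizol served for RNA extraction, per the labels' protocols. How the authors scanned and normalized the arrays was not given in the sources used here. Scale and direction were read from the values and the dye labels: the highest value, 16.61, equals a ceiling, and Mest followed the dye. The medians of the arrays as deposited, Cy5 over Cy3, were -0.59 to 0.76. All arrays were first turned to mutant over wild type, and the median of each was then subtracted. The 590 ceiling values were treated as missing and 232 Gapdh control spots left out. Spot intensity was not used, so spots near background or saturation were not identified.

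Tests required values on at least 4 arrays and at least 2 in each dye orientation, and used limma 3.58.1 (R 4.3.3) with a genotype and a dye term and the shared wild type as a random block (consensus correlation 0.25), with Benjamini-Hochberg adjustment over all 17476 probes. The wild types are separate cortices and so are the mutants, and their spread also holds that of the hybridisation. On simulated data of 17476 probes with normal noise and 200 changed probes, 40 of 100 changed by 1 and 71 of 100 changed by 2 on the log2 scale were called. Of the 17276 unchanged probes 9 were called. These shares hold for that number of changed probes, which is not known for the deposited data. Symbols came from the platform annotation; all 86 member probes matched the gene table of GRCm38.p6 and 0 symbols changed. Promoters were found for 54 of 76 genes. In lists, probes of a gene were averaged.

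The members and lists were chosen with earlier results of these data known. The text names every tested meningeal fibrillar collagen, collagen of basement membranes, laminin and cortical integrin, members with an unadjusted p under 0.05, with the same sign on all arrays, with disagreeing probes or the widest ranges, and the 3 genes of smallest p of each other list; neighbouring pairs and further genes were chosen after their values were seen. Alternatives left out the block, the dye term or the centring, or altered the scaling, used quantile normalization, other rules on missing and ceiling values, robust eBayes or 1 value per gene, or left out a dye orientation, a wild type or an array. Mutant 3 as a block of its own was chosen after seeing the data.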

Additional observations from a re-analysis of the deposited data

Results flagged for a closer look

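Of 78 sets of array values examined, 75 probes and 3 group medians, 9 held an array whose gap to the nearest other array exceeded the critical value of Dixon's test. Chance flags about 1 in 20 if values are normal and all arrays spread equally. The SD of all values was 1.53 in mutant 5 and 1.23 in mutant 7, against 0.89 to 1.21 on the other arrays. Of the flags 4 fell on mutant 5 and 5 on mutant 7. The share flagged over all tested probes was not computed, so no excess in these genes can be read from the count. On the array of mutant 5, Lama5 was at 1.79 (others -0.27 to 0.12), Itga7, a laminin receptor subunit of muscle, at 1.98 (others -0.19 to 0.11), Col7a1, the collagen of anchoring fibrils, at 1.90 (others -0.60 to 0.18) and Col24a1 at 0.80 (others -0.35 to -0.024). This array had the fewest probes with a value, 16422, and 19.8% of its tested probes lay beyond 1 in size, against 7.55% to 16.9% on the other arrays. On the array of mutant 7, Col1a1 was at 0.65 (others -0.26 to 0.077), Col6a1 at 0.84 (others -0.38 to -0.044), a probe of Col6a3 at -0.43 (others -0.089 to 0.076) and Itga3 at -0.60 (others -0.083 to 0.17). The median of the meningeal fibrillar collagens, which include Col1a1, was flagged there too, at 0.63 (others -0.12 to 0.061).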

How the results depend on the processing

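Under each of the 23 alternatives 0 collagen, laminin and integrin probes had a limma adjusted p under 0.05. The number at an unadjusted p under 0.05 was 2 of 75, against 3.93% of all probes. It was 10 of 75 after centring on Gapdh controls (15.8% of all probes) and 9 of 78 with the mutant in Cy3 only (10.9%). It was 4 of 76 without the arrays of wild type 2 (3.07%) and 4 of 78 without those of wild type 8 (3.65%). With 1 value per gene it was 1 of 68 (3.96%). When any 1 array was left out it was 2 to 5, against 2.26% to 6.23% of all probes. It was 5 of 74 without mutant 4 (4.14%) and 4 of 77 without mutant 5 (4.18%). It was 4 of 74 without mutant 6 (6.23%) and 3 of 74 without mutant 1 (3.94%). The causes were not tested. Col15a1 stayed below 0 under all 23 alternatives, from -0.81 to -0.41, with an adjusted p of 0.30 or higher. Its unadjusted p in limma was under 0.05 in 21 of them, but 0.19 without centring and 0.054 with the mutant in Cy5 only. The Itgav probe CG_Mm_3005272_1 lay between 0.28 and 0.62 wherever it was fitted by itself, and the mean of the Itgav probes at 0.27. The unadjusted p of this Itgav probe was 0.16 with the mutant in Cy5 only, 0.099 without the arrays of wild type 8 and 0.085 without those of wild type 9, and that of the mean of probes was 0.28. Centring moved the median of all probes to 0.26 without it and 0.26 on Gapdh, and group medians moved with it: basement membrane genes to 0.26 and 0.27, integrin receptors to 0.37 and 0.37, fibrillar collagens to 0.31 and 0.32. Leaving out single arrays gave medians of 0.015 to 0.12 for the fibrillar collagens, -0.022 to 0.033 for basement membrane genes (below 0 without mutant 5 or 7) and 0.050 to 0.12 for integrin receptors (0.050 without mutant 5, 0.069 without mutant 4), and the fibrillar median was -0.057 with the mutant in Cy5 only. With the mutant in Cy3 only, the median was -0.0070 for integrin receptors and -0.067 for basement membrane genes. Without the arrays of wild type 8, that of integrin receptors was 0.024, and without those of wild type 9, that of basement membrane genes was -0.046. Without 1 wild type the block correlation could not be estimated and that of all arrays was used. Each array pairs a mutant with a wild type by its ratio, and the wild types that arrays share entered as a random block.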
